A study of Mus musculus with 6 samples.

Results

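Complex I, the NADH:ubiquinone oxidoreductase of the mitochondrial inner membrane, was followed here through the transcripts of its nuclear genes in hearts with and without cyclophilin D. The members were the probe sets that carried exactly 1 gene symbol beginning with Nduf, the prefix of complex I subunits (Ndufa, Ndufb, Ndufc, Ndufs, Ndufv) and assembly factors (Ndufaf). They were 48 probe sets of 43 genes, out of 19939 genes measured in this way, and a gene with 2 probe sets was represented by the one with the higher mean over all 6 arrays. Of the 49 protein-coding Nduf genes in the gene table, 6 were not analysed here, among them 1 nuclear core subunit and the Ndufb4 copies, whose 2 probe sets share symbols. The measured genes comprised 6 core subunits, 10 accessory subunits of the peripheral arm, 18 accessory subunits of the membrane arm, Ndufa4 and its paralogue Ndufa4l2, and 7 assembly factors.

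The 3 hearts labelled Ppif-/- came from mice with a global knockout of Ppif, the gene of cyclophilin D, a matrix isomerase that promotes opening of the mitochondrial permeability transition pore. Per the labels these mice were backcrossed to C57BL/6 from Sv129, and the 3 wild-type (WT) hearts came from C57BL/6 mice. All mice were 8 weeks old, each heart was read on 1 Affymetrix Gene 1.0 ST array, and the labels name no treatment for either group. The series states that this age was chosen to look for changes that precede dysfunction of the myocardium; cardiac function was not analysed here. The Ppif-/- hearts lacked the gene in all cell types and throughout development, and residual Sv129 sequence around the deleted gene is a limit of such a backcross.

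Complex I oxidises NADH, passes the electrons through flavin and iron-sulphur clusters along a peripheral arm in the matrix to ubiquinone, and couples this to proton pumping by a membrane arm. The core subunits carry the redox centres and the pump, and the membrane core is encoded by mitochondrial DNA. The accessory subunits surround and stabilise the core, and assembly factors bind intermediates without staying in the finished enzyme. Heart muscle relies on respiration for its ATP and is rich in this enzyme.

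Values are log2 expression per probe set as deposited, differences are Ppif-/- minus WT on that scale with the standard error (SE) of the limma fit, and p-values were adjusted over all 23410 tested probe sets. The array medians lay between 6.03 and 6.11. Ppif itself stood at 6.00, 6.25 and 6.44 in the Ppif-/- hearts and at 11.44, 11.28 and 11.49 in the WT hearts, a difference of -5.17 ± 0.12 (limma adjusted p = 2.97e-06). The arrays read heart muscle in both groups: the 7 cardiomyocyte markers had means from 12.75 to 14.21, and their summed level was 16.46 to 16.48 in Ppif-/- and 16.44 to 16.49 in WT hearts. Singly they were not all level. Ryr2 was below 0 (-0.19 ± 0.06, limma adjusted p = 0.248) and Myl2 above 0 (0.07 ± 0.06, adjusted p = 0.702), both without overlap. None of the 7 passed, and the groups overlapped for the others. The 5 skeletal muscle markers had means of 4.34 to 6.85, and 4 of 5 adipocyte markers, with Ucp1 and Adipoq near the floor, summed to 8.66 to 8.85 and 8.64 to 8.82. The 5 macrophage markers went both ways. Cd68 was higher (0.56 ± 0.09, limma adjusted p = 0.039), Mrc1 (0.27) and Adgre1 (0.15) were above 0 and Cd14 (-0.66) and Csf1r (-0.10) below 0 without passing, and the groups overlapped for Adgre1 but not for the other 4. Their summed level was 10.33 to 10.51 in Ppif-/- and 10.21 to 10.28 in WT hearts. Of the 6 fibroblast markers, Pdgfra was lower (-0.44 ± 0.06, limma adjusted p = 0.025), while Col1a1, Col1a2 and Postn (0.21 to 0.39) and Dcn and Lum (-0.03 and -0.15) did not pass and overlapped. Their sum, 13.23 to 13.34 and 13.29 to 13.31, follows Dcn, the brightest marker. The calls of Cd68 and Pdgfra were lost without any 1 heart (adjusted p = 0.055 to 0.145 and 0.069 to 0.099) with differences of 0.50 to 0.63 and -0.46 to -0.41, and when the test covered all 35557 probe sets (0.124 and 0.073). The 5 endothelial markers summed to 12.70 to 12.87 and 12.75 to 12.87, with 0 of them passing. Of the 2 measured of 5 erythroid markers, Alas2 differed by 0.38 and Slc4a1 by 0.01, neither passed, and the groups overlapped for both, although the sums of 7.9033 to 8.06 and 7.53 to 7.8991 did not quite meet. The part of these cell types in the results below was not tested. In whole hearts, fewer cells of a type and less RNA per cell cannot be told apart.

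Transcripts of complex I were nearly level between the genotypes. In limma 0 of the 43 genes passed an adjusted p of 0.05, where 1.09% of all tested probe sets passed, 0.624% higher and 0.461% lower. At an unadjusted p under 0.05 there were 2 members, Ndufaf2 and Ndufa2, both above 0, while 12.9% of all tested probe sets reached it, 6.1% above and 6.81% below 0. The smallest p among the members was 0.021, with an adjusted p of 0.275. The hearts of the genotypes did not overlap for 7 members, 5 of them with higher values in Ppif-/- hearts, namely Ndufaf2, Ndufa2, Ndufa5, Ndufa13 and Ndufb3, and 2 with lower values, Ndufaf3 and Ndufa6. Among all tested probe sets, 19.8% did not overlap, 9.2% with higher and 10.6% with lower values in Ppif-/- hearts.

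The differences spanned -0.15 to 0.25, with a median of 0.02 beside -0.0023 over all tested probe sets. Their median absolute size was 0.04, against 0.08 for all tested probe sets and 0.09 for the brighter probe sets, those above the median of tested means. All 43 genes belonged to that brighter class, which starts at a mean of 6.62, while their own means ran from 6.97 to 13.21. A difference under 0.1, which is less than 1.07-fold, was measured for 34 of 43 members (79.1%) and for 54.9% of the brighter probe sets. The replicate hearts also lay close together, with a median within-genotype SD of 0.05 for the members and 0.09 for the brighter probe sets. Small differences and spread were not particular to complex I. Of 37 genes of complexes III, IV and ATP synthase, 94.6% were under 0.1, with a median SD of 0.05. For the 7 cardiomyocyte markers these values were 85.7% and 0.03.

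The 95% confidence intervals show how large a difference these 6 arrays leave room for. Each is for a single gene and is not adjusted for the number of genes. Their half-widths ranged from 0.14 to 0.28 with a median of 0.16, and 41 of 43 intervals included 0. The interval lay within 0.3 on either side of 0, a 1.23-fold difference, for 39 members. The lowest bound of any member was -0.31, a 1.24-fold lower level, and the highest was 0.45, a 1.36-fold higher level. These p-values and intervals rest on the spread between hearts that the labels number separately, after moderation by eBayes. That step moves the spread of each gene toward that of all tested probe sets. For members with close hearts it widens the interval. Ndufs1 had a within-genotype SD of 0.02 and an SE of 0.06. The smallest half-widths thus rest mostly on that step and less on the members' own hearts.

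**Figure D1:**
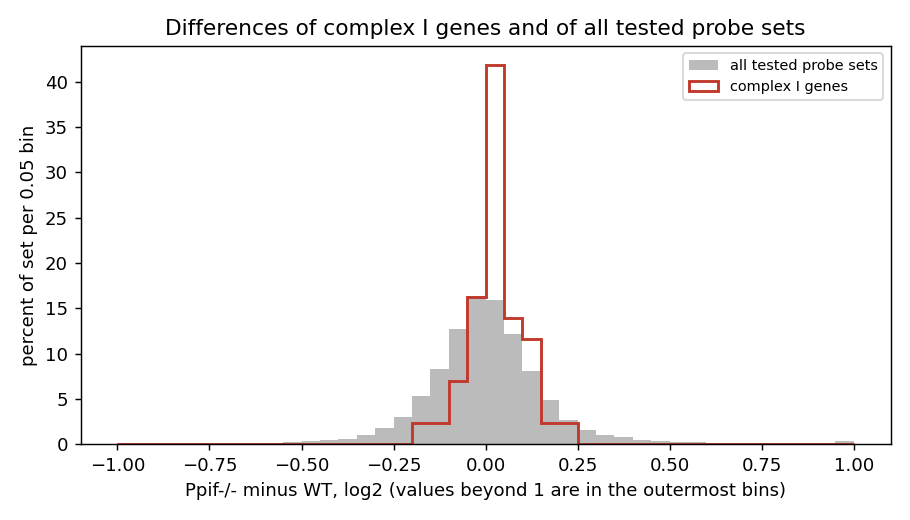
Distribution of the differences Ppif-/- minus WT (log2) for the 43 complex I genes and for all 23410 tested probe sets. The members lie between -0.15 and 0.25, with 34 of them under 0.1 in absolute size.

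The core subunits had the smallest differences of the 5 roles, with a median absolute size of 0.02. Ndufv1, which binds NADH and the flavin, read 12.37, 12.36 and 12.32 in the Ppif-/- hearts and 12.41, 12.32 and 12.42 in the WT hearts, a difference of -0.03 ± 0.06 (limma adjusted p = 0.893). Ndufv2, its iron-sulphur partner, read 11.86, 11.87 and 11.77 against 11.89, 11.75 and 11.88, a difference of -0.0023 ± 0.07 (adjusted p = 0.995). For both genes WT heart 2 was the low WT heart, and the groups overlapped.

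Ndufs1, the largest iron-sulphur subunit, read 12.79, 12.79 and 12.77 in Ppif-/- and 12.82, 12.78 and 12.76 in WT hearts. Its difference of 0.00098 ± 0.06 had an interval from -0.14 to 0.14, which bounds the difference at 1.10-fold in either direction. The Ppif-/- hearts lay inside the WT range.

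In the module that reduces quinone, Ndufs3 read 12.38, 12.33 and 12.34 against 12.33, 12.27 and 12.31 (0.05 ± 0.06, limma adjusted p = 0.826). Ndufs7, which carries the last iron-sulphur cluster before quinone, read 12.06, 12.11 and 12.12 against 12.12, 12.09 and 12.06 (0.0084 ± 0.06, adjusted p = 0.978). Ndufs8, which holds the clusters next to it, read 10.63, 10.69 and 10.67 against 10.76, 10.65 and 10.68 (-0.03 ± 0.07, adjusted p = 0.881). None of these 3 genes separated the genotypes, and for Ndufs8 WT heart 1 alone stood above the other 5 hearts. Across the 6 core genes, 3 differences were above and 3 below 0, and the median was -0.0007.

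**Figure D2:**
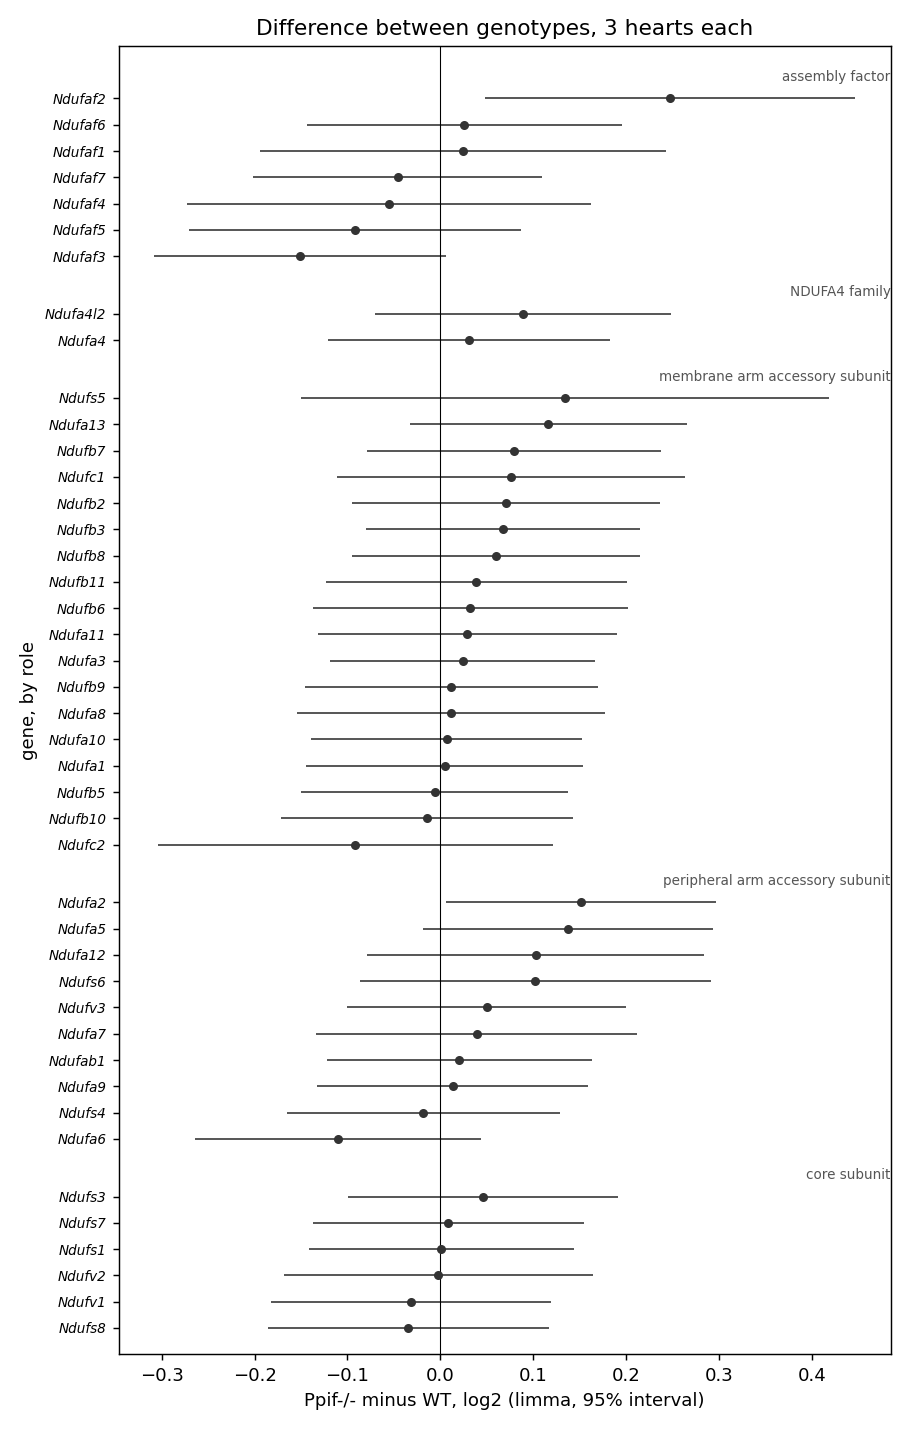
Difference Ppif-/- minus WT (log2) with its 95% confidence interval for each of the 43 members, grouped by role. All intervals but those of Ndufaf2 and Ndufa2 include 0.

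Upstream sequence was read for the members from RefSeq windows of the mouse assembly GRCm38.p6, taking the 250 bases before each annotated start. There were 40 windows for 38 of the 43 genes, with a median GC content of 57.8% beside 56.8% for the windows of all tested genes. The windows of 4 members are shown because they held the highest or lowest difference of an accessory group or separated the genotypes, and because no other annotated gene lies in their window. Each is written 5′ to 3′ on the strand of the gene, and capitals mark matches to the motifs searched.

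Ndufa5 (chr6:24527691-24527940, minus strand): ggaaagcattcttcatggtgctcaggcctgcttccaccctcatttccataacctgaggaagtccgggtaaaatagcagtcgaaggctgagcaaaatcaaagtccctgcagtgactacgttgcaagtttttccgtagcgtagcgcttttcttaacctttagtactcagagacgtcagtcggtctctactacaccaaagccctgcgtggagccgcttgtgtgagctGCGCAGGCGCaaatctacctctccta
Ndufa6 (chr15:82354292-82354541, minus strand): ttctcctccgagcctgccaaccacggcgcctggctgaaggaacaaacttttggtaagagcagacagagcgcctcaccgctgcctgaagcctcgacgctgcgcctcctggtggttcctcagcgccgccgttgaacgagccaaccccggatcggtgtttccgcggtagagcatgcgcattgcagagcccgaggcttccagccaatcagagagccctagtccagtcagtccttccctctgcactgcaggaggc
Ndufs5 (chr4:123718187-123718436, minus strand): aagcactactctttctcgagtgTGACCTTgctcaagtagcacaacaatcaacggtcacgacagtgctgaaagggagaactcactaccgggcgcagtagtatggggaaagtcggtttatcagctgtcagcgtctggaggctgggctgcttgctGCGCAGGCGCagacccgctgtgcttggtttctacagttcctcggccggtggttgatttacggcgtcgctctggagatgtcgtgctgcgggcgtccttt
Ndufc2 (chr7:97399753-97400002, plus strand): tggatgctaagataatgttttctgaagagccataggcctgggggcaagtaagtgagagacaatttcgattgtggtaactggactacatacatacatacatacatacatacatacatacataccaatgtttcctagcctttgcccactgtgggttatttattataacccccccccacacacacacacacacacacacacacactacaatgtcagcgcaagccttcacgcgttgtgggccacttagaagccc

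The capitals mark a motif of NRF1 (GCGCA and GCGC with 1 base between them) in the windows of Ndufa5 and Ndufs5, and in Ndufs5 also the reverse complement of AAGGTCA, a motif of the estrogen-related receptors. NRF1 and these receptors are transcription factors known for nuclear genes of respiration. The windows of Ndufa6 and Ndufc2 held none of the 5 motifs searched, which says only that these letters are not in those windows. Both strands were searched. The NRF1 motif was found in 7 windows of 6 members (Ndufa11, Ndufa5, Ndufa8, Ndufaf4, Ndufs5 and Ndufs6), 17.5% of their windows, beside 3.74% of all windows and 5.63% of those of tested genes. ATGGCGG, a motif of YY1, was found in 5 windows of 4 members (Ndufa1, Ndufa5, Ndufa7 and Ndufaf7), 12.5% beside 2.21% of all windows and 2.70% of those of tested genes. For Ndufa5 it lay in a further window that is not printed. The receptor motif was found in 2 windows (5.0%, beside 4.08% of all and 3.39% of tested genes), of Ndufb2 and Ndufs5. CCGGAAGT, a motif of ETS factors, was found in 0 of 40 windows, in 2.88% of all and in 4.00% of those of tested genes. TATAAA was found in 12.5% of the members' windows, in 12.4% of all and in 10.5% of those of tested genes. These shares describe letters in windows, and members with and without a motif are not compared for their expression here. The motifs do not overlap one another in the 4 printed windows.

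Accessory subunits of the peripheral arm had the larger differences among the subunits, all short of the threshold. Ndufa2, a thioredoxin-like subunit of the NADH-oxidising module, read 10.36, 10.32 and 10.29 in the Ppif-/- hearts and 10.19, 10.14 and 10.19 in the WT hearts. Each Ppif-/- heart was above each WT heart. The difference was 0.15 ± 0.06, or 1.11-fold, with an interval from 0.0066 to 0.30 (limma adjusted p = 0.364).

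Ndufa5, a small subunit of the quinone module that was chosen after its values were seen, read 10.87, 10.85 and 10.88 against 10.78, 10.65 and 10.76. The Ppif-/- hearts had an SD of 0.02 and the WT hearts one of 0.07, and the groups did not overlap. The difference of 0.14 ± 0.07 was 1.10-fold (limma adjusted p = 0.440).

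Ndufa6, which docks the mitochondrial acyl carrier protein Ndufab1 onto the enzyme, was the lowest of the group. It read 9.87, 9.89 and 9.93 in Ppif-/- and 10.05, 10.03 and 9.94 in WT hearts. The groups did not overlap, though Ppif-/- heart 3 and WT heart 3 nearly met. The difference was -0.11 ± 0.07, or 1.08-fold lower (limma adjusted p = 0.543). The acyl carrier protein itself differed by 0.02.

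The differences of the other 7 members of the peripheral arm ranged from -0.02 to 0.10. Ndufs6, a zinc-binding subunit, differed by 0.10 ± 0.08 and Ndufa12, which takes its place late in assembly, by 0.10 ± 0.08. Ndufs4, whose loss is a known cause of Leigh-like disease in mice, differed by -0.02 ± 0.06. Ndufv3 differed by 0.05, Ndufa7 by 0.04 and Ndufa9 by 0.01. In all, 8 of the 10 differences were above 0, with a median of 0.04.

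Among the 18 accessory subunits of the membrane arm, 15 differences were above and 3 below 0, with a median of 0.03 and a range of -0.09 to 0.13. Ndufs5, a subunit on the intermembrane-space side, had the highest. It read 10.70, 10.91 and 10.82 in Ppif-/- and 10.88, 10.72 and 10.42 in WT hearts, so that WT heart 3 stood apart below and the other 5 hearts overlapped. The difference of 0.13 ± 0.12 (limma adjusted p = 0.713) was 0.0067 without WT heart 3, 0.08 without Ppif-/- heart 2 and 0.24 without WT heart 1, and between these values without any other heart. A further probe set that lists Ndufs5 together with its pseudogene differed by 0.05 ± 0.06, and signal of the gene and its pseudogene cannot be told apart there.

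Ndufc2, a membrane arm subunit, had the lowest difference of the group. It read 11.82, 12.06 and 11.99 against 12.15, 11.93 and 12.06, with overlap (-0.09 ± 0.09, limma adjusted p = 0.743). The difference was -0.02 without Ppif-/- heart 1 and -0.04 without WT heart 1, and it was -0.14 without Ppif-/- heart 2 and -0.15 without WT heart 2. Its partner Ndufc1 differed by 0.08 ± 0.08.

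Ndufa13, also known as GRIM-19, read 10.36, 10.40 and 10.44 in Ppif-/- and 10.25, 10.27 and 10.33 in WT hearts, without overlap. Its difference was 0.12 ± 0.06 (limma adjusted p = 0.502). Ndufb3 read 8.47, 8.41 and 8.40 against 8.39, 8.34 and 8.33, also without overlap, a difference of 0.07 ± 0.06 (adjusted p = 0.723). Both were chosen after their values were seen, because their hearts did not overlap. Of the remaining membrane arm genes, Ndufb7 (0.08), Ndufb2 (0.07) and Ndufb8 (0.06) had the highest differences, and Ndufb10 (-0.01) and Ndufb5 (-0.006) were the other two below 0.

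Ndufa4 was named as a complex I subunit and is now counted to complex IV, and Ndufa4l2 is its paralogue known for induction in low oxygen. Ndufa4 read 13.26, 13.25 and 13.16 in Ppif-/- and 13.23, 13.17 and 13.17 in WT hearts (0.03 ± 0.07, limma adjusted p = 0.897). Ndufa4l2 read 8.35, 8.45 and 8.40 against 8.26, 8.28 and 8.39 (0.09 ± 0.07, adjusted p = 0.648). The groups overlapped for both genes: all WT hearts lay inside the Ppif-/- range for Ndufa4, and WT heart 3 did for Ndufa4l2.

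The assembly factors held both extremes of the 43 members. Ndufaf2, a paralogue of Ndufa12 that acts late in assembly, read 8.33, 8.28 and 8.05 in the Ppif-/- hearts and 7.99, 7.96 and 7.97 in the WT hearts. The WT hearts were tight, with an SD of 0.015, while Ppif-/- heart 3 lay well below its group and close above the WT hearts. The difference was 0.25 ± 0.09, or 1.19-fold, with an interval from 0.05 to 0.45 (limma adjusted p = 0.275). Leaving out 1 heart gave 0.19 (adjusted p = 0.451, without Ppif-/- heart 1) to 0.33 (adjusted p = 0.159, without Ppif-/- heart 3), and it passed in none of these fits.

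Ndufaf3, which with Ndufaf4 helps to build the quinone module, was the lowest member. It read 8.07, 8.09 and 8.03 in Ppif-/- and 8.18, 8.30 and 8.17 in WT hearts, without overlap. The difference was -0.15 ± 0.07, or 1.11-fold lower (limma adjusted p = 0.407). Its partner Ndufaf4 differed by -0.06 ± 0.09, with overlap.

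The other factors lay between these. Ndufaf5, which hydroxylates an arginine of Ndufs7, differed by -0.09 ± 0.08. Ndufaf7, a methyltransferase acting on a core subunit, differed by -0.05 ± 0.07. Ndufaf1, which helps to assemble the membrane arm, differed by 0.02 ± 0.09 and Ndufaf6 by 0.03 ± 0.07. Of the 7 factors, 3 were above and 4 below 0, with a median of -0.05.

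**Figure D3:**
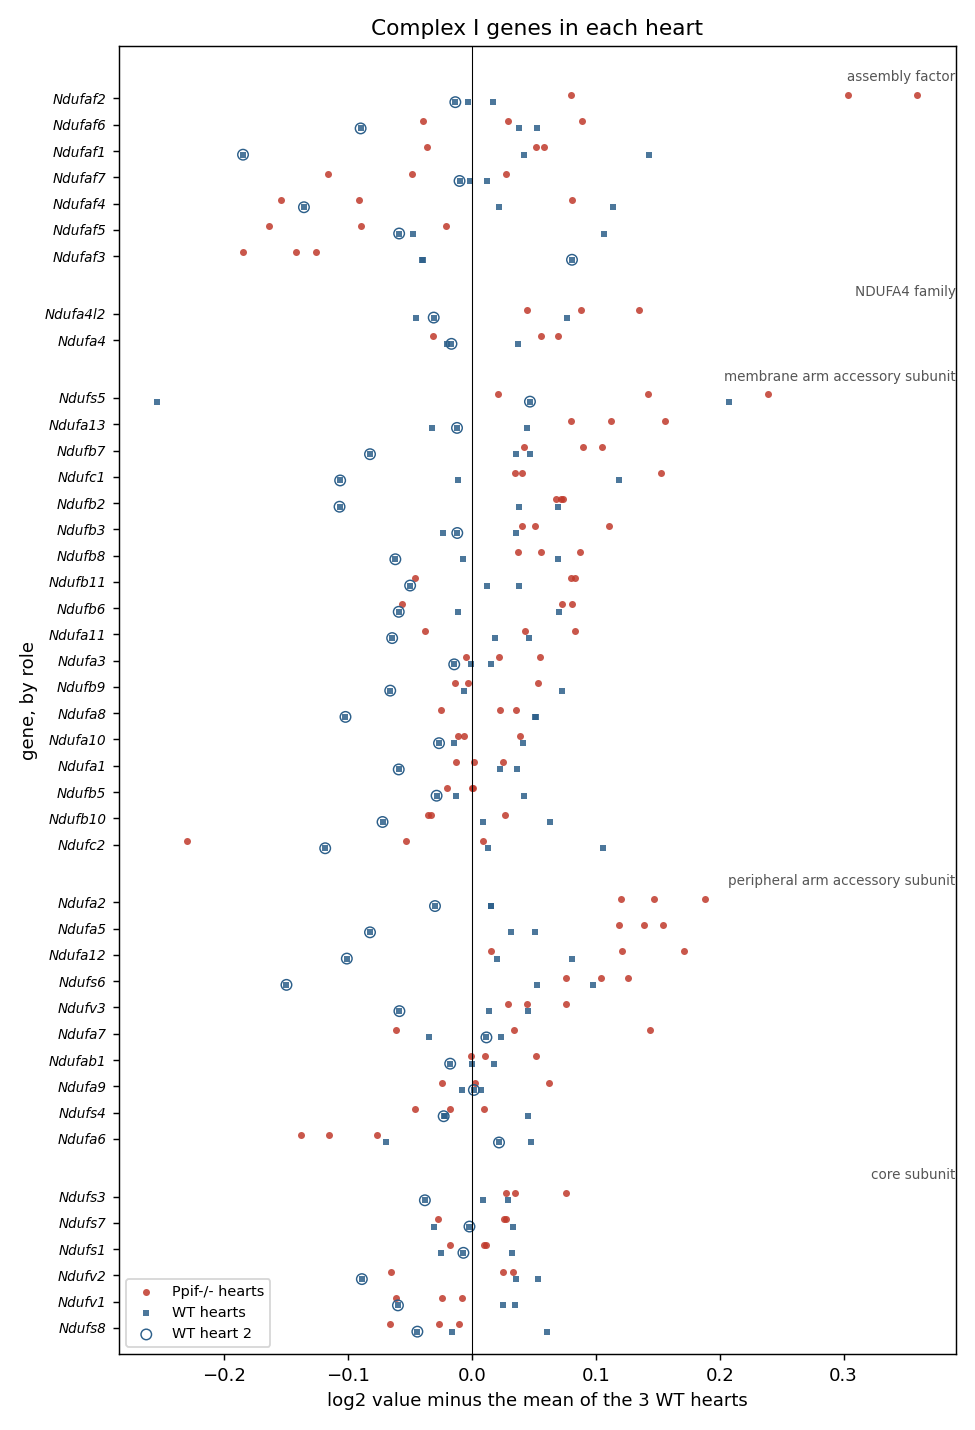
Log2 value in each of the 6 hearts minus the mean of the 3 WT hearts, for the 43 members by role, with Ppif-/- hearts as red circles, WT hearts as blue squares and WT heart 2 ringed. For Ndufaf2 and Ndufa2 the Ppif-/- hearts lie right of all WT hearts, and for the 6 core subunits the hearts overlap.

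For the 5 genes with 2 probe sets, both differences lay within 0.1 of each other. The pairs of differences were 0.03 and -0.04 for Ndufa11, 0.02 and 0.04 for Ndufab1, 0.04 and 0.10 for Ndufb11, 0.08 and 0.01 for Ndufc1, and 0.05 and 0.02 for Ndufs3. The probe sets of Ndufa11 differed in sign, and none of the 10 passed the threshold. The 2 probe sets that list Ndufb4b and Ndufb4 together differed by -0.02 and -0.0025.

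The count of members above 0 depended on single hearts. WT heart 2 was the lowest of the 3 WT hearts for 32 of 43 members (74.4%), while it was the lowest for 38.0% of all tested probe sets and 36.0% of the brighter ones. Its median deviation from the mean of each member over all hearts was -0.07, beside 0.03 in WT heart 1 and 0.0006 in WT heart 3. The Ppif-/- hearts had median deviations of 0.01, 0.03 and -0.0097. Over all tested probe sets the median deviation of WT heart 2 was -0.0022, and over the brighter ones it was 0.0152.

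The pattern of WT heart 2 ran through the roles, as the lowest WT heart for 4 of 6 core subunits, 7 of 10 peripheral and 15 of 18 membrane accessory subunits, and 6 of 7 assembly factors. For the pair Ndufa4 and Ndufa4l2 it was the lowest in 0 of 2. The same heart was the lowest WT heart for 27 of 37 genes of complexes III, IV and ATP synthase (73.0%). With all hearts, 31 members (72.1%) were above and 12 below 0. Of all tested probe sets 49.2% were above 0, and of the brighter ones 45.7%. Such shares over all probe sets were not computed for the splits that follow. Without WT heart 2 the split was 23 and 20, the median was 0.0074, and 0 members passed in limma (smallest adjusted p = 0.431). The split was 25 and 18 without Ppif-/- heart 2, 35 and 8 without WT heart 1, and 24 and 19 with each array centred on its median. Centring lowered the difference of every probe set by the same amount. The split with centred arrays therefore leaves the members where they were relative to the other probe sets. The part of any scan or extraction batch in the pattern of WT heart 2 was not tested, since no batch was given.

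**Figure D4:**
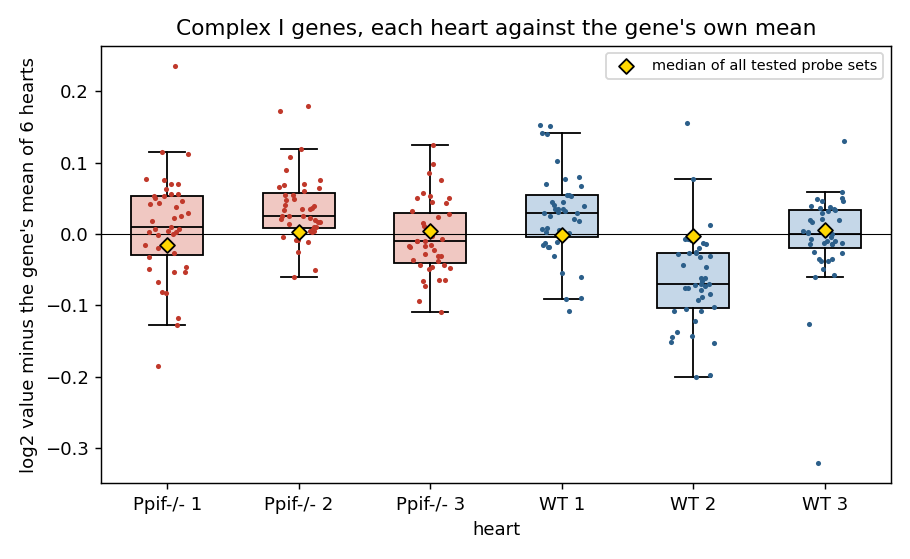
Deviation of each member (points, n = 43) from its mean over the 6 hearts (log2), by heart, with boxes for the quartiles and median and diamonds for the median of all tested probe sets. WT heart 2 has a median of -0.07, while the other hearts have medians between -0.0097 and 0.03.

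Other genes on which complex I depends were read from lists of the same kind. Of the 7 core subunits encoded in mitochondrial DNA, ND3 was measured, at 13.27, 13.22 and 13.10 in Ppif-/- and 13.25, 13.26 and 13.29 in WT hearts (-0.07 ± 0.07, limma adjusted p = 0.732). Among 15 measured assembly factors outside the Nduf names, 0 passed in limma and the median was -0.02. A p under 0.05 before adjustment was reached by 1 above and 2 below 0. Over all tested probe sets, 6.1% were above and 6.81% below 0 at such a p. The same shares stand beside the counts of the lists that follow. Sfxn4, a mitochondrial protein needed for complex I biogenesis, had the smallest p. It read 7.57, 7.49 and 7.22 against 6.98, 7.04 and 6.71, without overlap, a difference of 0.52 ± 0.12 (adjusted p = 0.114).

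Of 13 measured genes of iron-sulphur cluster assembly and iron import, 0 passed in limma, with a median of -0.05. Of the 13, 3 below 0 had a p under 0.05 before adjustment, beside 6.81% of all tested probe sets. Iba57, which works late in cluster assembly, had the smallest p. It read 6.82, 6.92 and 7.05 in Ppif-/- and 7.25, 7.35 and 7.31 in WT hearts, without overlap (-0.37 ± 0.08, limma adjusted p = 0.090). Of the 8 genes of complex II, the other entry of electrons into the quinone pool, 0 passed in limma, 1 had a p under 0.05 before adjustment, and the median was -0.04. Its membrane anchor Sdhc had the smallest p, with 12.17, 12.22 and 12.29 against 12.54, 12.45 and 12.52 (-0.28 ± 0.07, adjusted p = 0.136).

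Coenzyme Q, the electron acceptor of complex I, gave the 1 call among these lists. Coq10b, a coenzyme Q-binding protein of the inner membrane, was higher in Ppif-/- hearts. It read 10.01, 9.63 and 9.66 against 9.11, 9.15 and 9.16, and Ppif-/- heart 1 stood highest. The difference was 0.63 ± 0.11, or 1.54-fold (limma adjusted p = 0.042). The call was kept without Ppif-/- heart 1 (0.51, adjusted p = 0.037) and lost without any 1 of the other 5 hearts (differences of 0.61 to 0.70, adjusted p = 0.069 to 0.144), and also when the test covered all 35557 probe sets (again 0.63, adjusted p = 0.131). The other 11 measured genes of the list did not pass, 1 of them below 0 with a p under 0.05 before adjustment, and the list median was -0.05.

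Among the 37 measured genes of complexes III, IV and ATP synthase, 0 passed in limma, and 32 differences (86.5%) were above 0 with a median of 0.03. Of all tested probe sets 49.2% were above 0, and of the brighter ones 45.7%. The 1 gene with a p under 0.05 before adjustment was Atpif1, the inhibitor of ATP synthase, at 12.00, 11.88 and 11.87 against 11.53, 11.69 and 11.60 (0.31 ± 0.08, adjusted p = 0.131). The median absolute difference was 0.04 in this list as in complex I. No difference between the lists was tested.

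**Figure D5:**
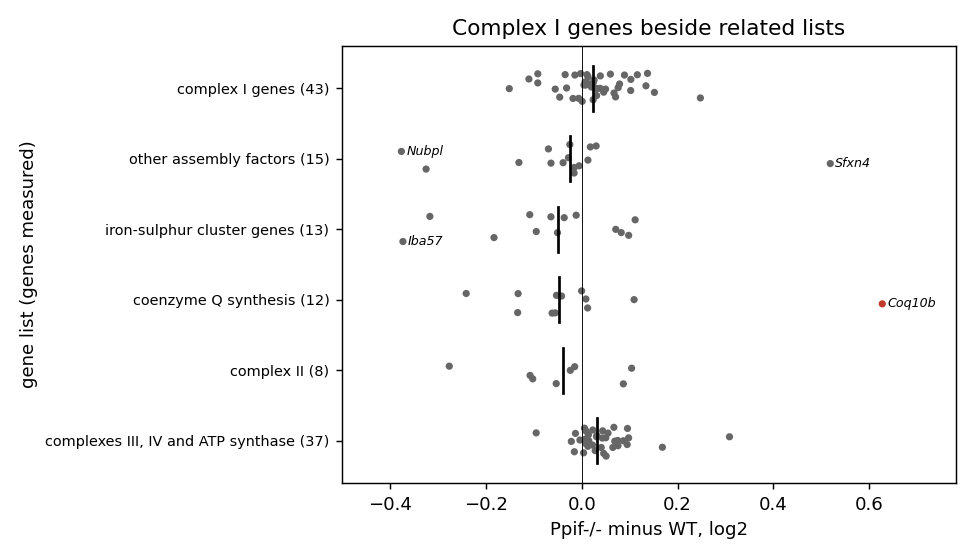
Differences Ppif-/- minus WT (log2) of single genes (points) in 5 related lists beside the complex I members, with list medians as bars. Coq10b at 0.63, in red, is the 1 gene past the threshold, and the medians lie between -0.05 and 0.03.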

How the data were processed

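Total RNA of 6 hearts was hybridised to 1 array each, and the groups follow the genotype in the labels. Per the submitters' processing notes the authors used RMA, and the values they deposited are log2 signals, 1 for each probe set. Its version, any filter and the array's build are not stated in the material used. RMA can understate folds of dim transcripts. Symbols came from the platform annotation, updated through Entrez identifiers to a GRCm38.p6 gene table: 21698 of 21789 probe sets with 1 symbol matched, 1621 carried several symbols and 12147 none. The 23410 with a symbol were tested in R 4.3.3 by a linear model without covariates (limma 3.58.1, moderated by eBayes, 2-sided), with Benjamini-Hochberg adjustment at 0.05, and folds are 2 to the power of the difference. The procedure was tested on simulated data. With 3 hearts a group an exact permutation test cannot go below 0.1, so none was run. Scan dates, batches and detection calls were not analysed here, and the number of arrays limits the precision. Members and lists were chosen with earlier results of these data known. Values in every heart are given for core subunits, members with an unadjusted p under 0.05, the highest and lowest difference of each role, and Ndufa4 and Ndufa4l2; in related lists, for genes that passed and the smallest p. Others given in full are said to be chosen after their values were seen. Alternatives covered the replicate number as a block, the filter and set of probe sets, normalisation, eBayes settings, array weights, the choice of a member's probe set, and leaving out each heart. Promoter windows are from RefSeq.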

Additional observations from a re-analysis of the deposited data

How the results depend on the processing

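Under 17 alternatives 0 complex I members passed in limma, with a smallest adjusted p of 0.149, on the brighter probe sets. Among these alternatives, the use of symbols as annotated gave the same members and so only repeated the main fit. The median difference of the members ranged from 0.0056 with centred arrays to 0.0251 with quantile normalisation, and from 0.0074 to 0.0448 without 1 heart. Of 224 alternative values of 14 members, 211 kept their direction and 13, of core subunits near 0, changed sign. Many of the 211 could not have changed. The replicate block, the sets of probe sets tested and the eBayes settings left each difference as it was. The mean over a member's probe sets moved only Ndufs3 among the 14. Ndufs1 was -0.0179 with centred arrays, -0.0001 with array weights and -0.0116 to 0.0171 without 1 heart. Ndufs7 was -0.0104 with centred arrays and -0.007 to 0.0265 without 1 heart, and Ndufv2 was -0.0469 to 0.0291 without 1 heart. The number of probe sets called, 254, was 405 on the brighter probe sets, 131 when all probe sets were tested, 453 with a variance trend, 386 with array weights and 131 to 171 when a heart was left out. A replicate block on the hearts' numbers gave 160, with 0 members. Same-numbered hearts of the genotypes did not deviate together (correlations of -0.08, -0.06 and 0.12), so the numbers do not pair them; the block also ended the calls of Coq10b (0.63, adjusted p = 0.090), Cd68 (0.56, 0.098) and Pdgfra (-0.44, 0.093). No alternative shifted the median of all tested probe sets by more than 0.0189, the amount by which centring lowered every difference. The number of arrays limits the precision to the intervals given above, which hold for each gene singly. A difference whose interval leaves out 0 need not pass the adjusted threshold, and those of Ndufaf2 and Ndufa2 did not.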

Other observations

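Many members share their start region with another gene. Of 40 member windows, 17 (42.5%) overlapped another annotated gene, beside 22.6% of the windows of tested genes. For 13 such neighbours with a probe set of their own, 0 passed in limma, and differences ran from -0.24 to 0.30. A p under 0.05 before adjustment was reached by 3 of the 13, beside 12.9% of all tested probe sets. Of the 13, 8 had the sign of their member, and the share of like signs among other neighbouring genes was not computed. Counts this small do not set the neighbours apart from the other probe sets. These pairs were looked at after the members' values were seen.

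The neighbour of Ndufaf2 is Ercc8, a gene of transcription-coupled DNA repair. Ercc8 read 6.05, 6.09 and 6.04 in Ppif-/- and 5.78, 5.68 and 5.81 in WT hearts, without overlap, a difference of 0.30 ± 0.07 (limma adjusted p = 0.102). Ndufaf2 and Ercc8 thus both had higher values in each Ppif-/- heart than in each WT heart, and neither passed the threshold. Dalrd3, the neighbour of Ndufaf3, differed by -0.02 (adjusted p = 0.951). Tssk6, a testis kinase beside Ndufa13, differed by 0.21 (adjusted p = 0.261), and Rnf113a1 beside Ndufa1 by -0.20 (adjusted p = 0.318). Both were dim, with means of 4.91 in Ppif-/- and 4.70 in WT hearts for Tssk6 and of 5.54 and 5.74 for Rnf113a1. These lie below the median of tested means, 6.62, as do the values of Ercc8.

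Of the related genes with a p under 0.05 before adjustment, 5 more had each Ppif-/- heart below each WT heart, did not pass, and were chosen after their values were seen. Among all tested probe sets, 6.81% were below 0 at such a p, and 10.6% had each Ppif-/- heart below each WT heart. Nubpl, which delivers iron-sulphur clusters to complex I, read 5.58, 5.38 and 5.34 in Ppif-/- and 5.95, 5.74 and 5.75 in WT hearts (-0.38 ± 0.09, limma adjusted p = 0.138). Tmem126b, a factor of the membrane arm, read 8.76, 8.72 and 8.45 against 9.20, 8.76 and 8.95 (-0.32 ± 0.13, adjusted p = 0.344). Its groups nearly met, at 8.7560 in Ppif-/- heart 1 and 8.7586 in WT heart 2. Slc25a37, the mitochondrial iron importer mitoferrin-1, read 6.72, 6.78 and 6.88 against 7.02, 7.22 and 7.10 (-0.32 ± 0.08, adjusted p = 0.142). Its homologue Slc25a28 differed by -0.18 (adjusted p = 0.379), and Coq8b, an atypical kinase of coenzyme Q synthesis, by -0.24 (adjusted p = 0.341).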
